A study of Mus musculus with 9 samples.

Results

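The Kruppel-like factors (KLFs) described here were 8 genes, Klf2, Klf3, Klf4, Klf6, Klf7, Klf9, Klf10 and Klf13, taken by gene symbol from a table of 46095 symbols. All 8 passed the filter on low counts and belonged to the 14026 genes tested. The cells were bone marrow-derived macrophages, which are grown in culture from marrow precursors, of wild type Balb/c mice with a labelled age of 6 weeks. Control cells, cells given LPS, and cells given LPS with BHB formed 3 groups of 3 RNA sequencing libraries. The labels give no dose, time or full name for either agent. By common usage they would be lipopolysaccharide, a bacterial product that activates macrophages, and beta-hydroxybutyrate, a ketone body. BHB was never given alone, so its addition can be compared only in cells that also received LPS. The labels do not say whether replicates were separate cultures or animals, and the p-values therefore measure only the spread between these libraries, which may be technical.

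KLFs are transcription factors with a run of zinc fingers at the carboxyl end that binds GC-rich and CACCC sequences, and members differ mainly in the amino-terminal part that recruits activators or repressors. In macrophages Klf2 and Klf4 are known as regulators of inflammatory activation and Klf6 as a promoter of it. Klf3 represses through CtBP proteins, and Klf9, Klf10 and Klf13 can recruit the SIN3A repressor complex. Because members share binding sequences, which of them a cell expresses, and in what proportion, is a usual question in this family.

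Libraries held 29633411 to 32798920 counts. The fewest counts of a member were those of Klf4 in control (129, 106 and 165) and Klf2 in LPS (129, 151 and 161), where counting error is largest. All 8 macrophage markers examined were tested. Their summed levels were 18750 to 22088 CPM (normalised read count scaled to a common library size) in control, 9160 to 10482 in LPS and 15026 to 15555 in LPS plus BHB. Lyz2 was most of the sum in control, at 14575, 5061 and 5883 CPM in the 3 groups. Cd14 was most of the rise with BHB, at 529.7, 1651 and 5765 CPM. Cd68 fell in both comparisons, at 1131, 787.6 and 539.9 CPM. With LPS 2 of the 8 were higher and 6 lower, and with BHB 5 were higher and 1 lower. Of all tested genes 79.8% and 50.7% were called in these comparisons. Lymphocyte markers summed to at most 0.21 CPM in any library. Dendritic cell markers summed to 1.66 to 2.40 CPM in control, 20.05 to 24.7 in LPS and 16.4 to 17.5 in LPS plus BHB. Most of the sum was Zbtb46 in LPS and in LPS plus BHB, but not in control. Zbtb46 averaged 0.869 ± 0.299, 20.3 ± 2.43 and 13.6 ± 0.980 CPM in the 3 groups, while Flt3 was under 1 CPM in every group. Neutrophil markers summed to 4.604 to 5.04, 2.06 to 3.26 and 4.69 to 6.65 CPM, erythroid markers to 1.02 to 1.35, 0.429 to 0.874 and 1.48 to 2.10, and stromal markers to 3.02 to 10.1, 3.39 to 8.11 and 3.5996 to 9.52. Endothelial markers, of interest because Klf2 and Klf4 are prominent in endothelium, summed to 22.6 to 24.3 CPM in control, 23.1 to 25.4 in LPS and 17.7 to 22.8 in LPS plus BHB. Within that list Pecam1, also made by macrophages, moved in the directions of Klf2, at 4.89 ± 0.688, 0.261 ± 0.128 and 1.17 ± 0.375 CPM (log2 -4.19 with LPS and 2.13 with BHB). Kdr moved the other way in both comparisons, at 11.1 ± 0.997, 19.3 ± 1.94 and 14.0 ± 1.46 CPM, and Tek was under 1 CPM in every group. The part of these markers in the results was not tested. Control replicates 2 and 3 stood apart from control replicate 1 in genes strongly induced by LPS: Acod1, which makes itaconate, had 24, 1739 and 1808 counts in control replicates 1, 2 and 3, against 156090 to 172641 in the LPS libraries. Among the members, control replicate 1 lay between the other controls for 5 of 8 genes. LPS plus BHB replicate 3 differed most from its own group, with a chi-square per degree of freedom of 11.2 and 10.7 against replicates 1 and 2. Fits without control replicates 2 and 3 are given beside the counts of called genes. They keep 1 control library, which is assumed to vary like the libraries of the other groups.

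Promoter sequence is shown for Klf2, Klf4 and Klf6, because Klf4 and Klf6 moved together across the groups and Klf2 moved the other way. The sequences are from RefSeq (GRCm38.p6), on the strand of the gene and 5′ to 3′, and stop before the first annotated exon. Capitals mark the GC box GGGCGG on either strand, the E-box CACGTG and the match to the MEF2 consensus. Klf2 is shown at chr8:72318812-72319032 (plus strand), Klf4 at chr4:55532476-55532725 (minus strand) and Klf6 at chr13:5861239-5861481 (plus strand).
Klf2: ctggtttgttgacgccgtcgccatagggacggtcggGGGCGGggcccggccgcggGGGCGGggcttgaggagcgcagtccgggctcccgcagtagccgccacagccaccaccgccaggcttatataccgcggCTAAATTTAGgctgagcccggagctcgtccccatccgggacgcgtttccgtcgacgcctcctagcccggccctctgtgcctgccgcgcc
Klf4: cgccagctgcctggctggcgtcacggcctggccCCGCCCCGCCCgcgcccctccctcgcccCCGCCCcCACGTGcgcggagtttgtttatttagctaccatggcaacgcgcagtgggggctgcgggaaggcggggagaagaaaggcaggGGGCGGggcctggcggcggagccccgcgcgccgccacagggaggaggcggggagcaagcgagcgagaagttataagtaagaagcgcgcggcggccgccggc
Klf6: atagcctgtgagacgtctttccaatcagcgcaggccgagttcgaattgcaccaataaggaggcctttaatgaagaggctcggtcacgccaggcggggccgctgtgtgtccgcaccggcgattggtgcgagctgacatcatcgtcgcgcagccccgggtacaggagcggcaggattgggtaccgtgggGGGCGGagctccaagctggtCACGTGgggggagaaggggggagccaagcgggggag

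In the 250 bases before the RefSeq start, Klf4 had 4 GC boxes, Klf2 had 2 and Klf6 had 1, and 32.7% of 32851 promoters of that length held at least 1. Klf4 and Klf6 each had 1 E-box, which 6.02% of promoters held. Klf2 alone among the 7 members with a promoter sequence had a MEF2 match, 118 bases before its start, and 2.92% of promoters held one. Klf10, which moved in the directions of Klf2, had no promoter sequence here and was not searched. The CACCC box, searched on both strands and present in 52.0% of promoters, occurred 5 times in Klf3, 3 times in Klf7, 1 time each in Klf2, Klf9 and Klf13, and was not found in Klf4 or Klf6. GC content was 59.2% in Klf7 to 78.4% in Klf3, all above the median of 52.4%. The shares over all promoters were not matched for GC content, so they are no like background for motifs rich in G and C. The AP-1 sequence TGANTCA, present in 6.75% of promoters, was found in Klf9 only. None of the 7 windows held the NF-kB consensus, the cyclic AMP element TGACGTCA, a CArG box or TATAAA. The Klf3 and Klf7 windows overlap annotated exons, as do the ends of the Klf2 and Klf6 windows. All counts are letter matches in short windows and say nothing of factor binding.

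7 members changed with LPS and all 8 changed when BHB was added to LPS. In LPS against control, Klf3, Klf4, Klf6, Klf7 and Klf9 rose, Klf2 and Klf10 fell, and Klf13 was not called. Across all tested genes 79.8% were called in that comparison, 38.4% higher and 41.4% lower, so the count of 7 of 8 members lies near the background. The groups of the same 7 members did not overlap, as for 82.7% of tested genes. The median absolute log2 fold change was 1.77 over the members and 0.90 over all tested genes. The members were chosen with earlier results of these data known, so comparisons with all tested genes are descriptions only. Without control replicates 2 and 3, which leaves 1 control, 4 members were higher and 2 lower, and Klf9 was not called. In LPS plus BHB against LPS, 5 members rose (Klf2, Klf3, Klf7, Klf10, Klf13) and 3 fell (Klf4, Klf6, Klf9), where 50.7% of all tested genes were called, 26.4% higher and 24.4% lower. The groups of all 8 did not overlap, against 56.7% of tested genes. The median absolute log2 fold change there was 0.88 over the members and 0.34 over all genes, with the same limit from the choice of members. In LPS plus BHB against control, 5 were higher, 2 lower and Klf9 was not called, beside 78.4% of all genes called, 38% higher and 40.4% lower. The groups of 7 members did not overlap there, against 80.2% of tested genes. Without control replicates 2 and 3, Klf13 was not called. The comparisons share libraries and are not independent of each other. In bulk RNA, fewer cells expressing a gene and less RNA per cell cannot be told apart.

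**Figure D1:**
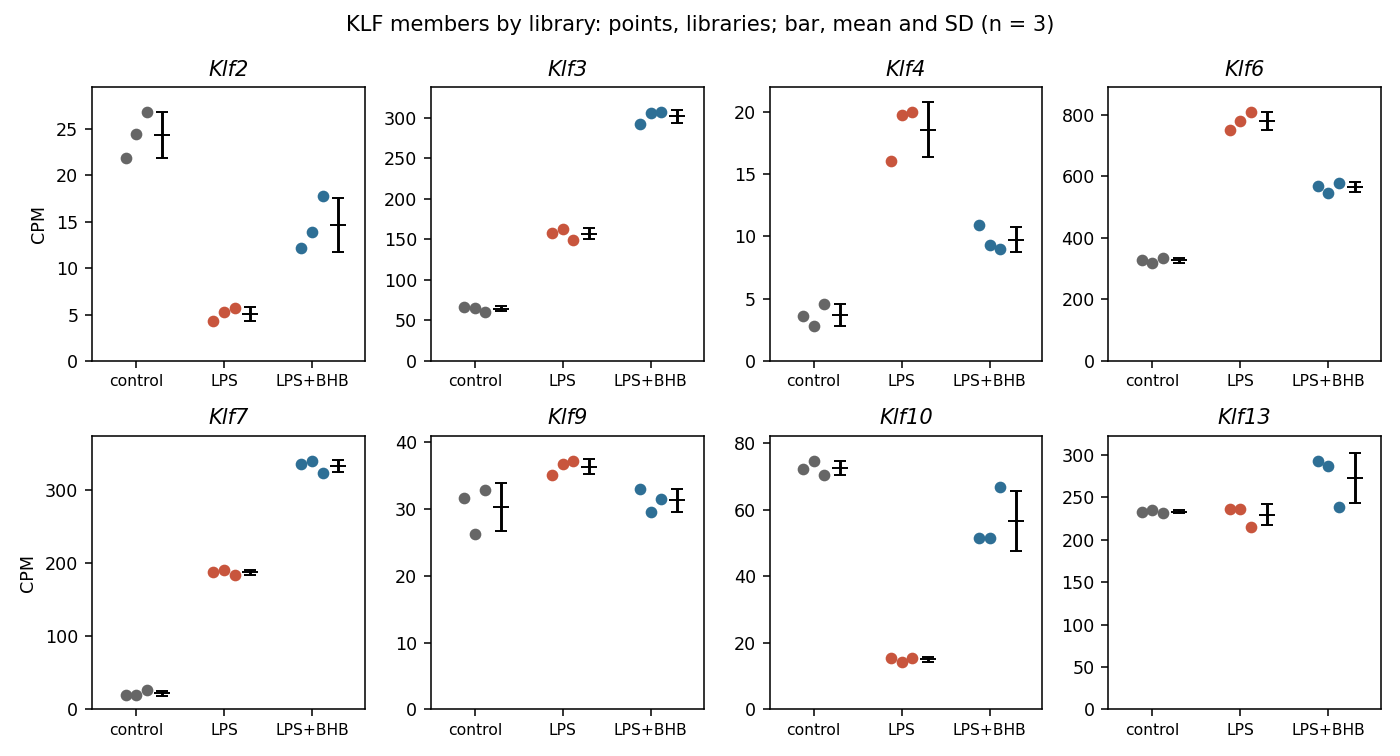
Normalised level (CPM, linear axis from 0, a scale of its own in each panel) of each of the 8 members; points are the 9 libraries and bars the group mean and SD (n = 3). Klf2 and Klf10 are lowest in LPS, Klf4 and Klf6 are highest in LPS, and Klf3 and Klf7 are highest in LPS plus BHB.

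Klf2 and Klf10 fell with LPS and rose when BHB was added. Klf2 (ENSMUSG00000055148.7, chr8:72319033-72321656, plus strand, GRCm38) is associated with quiescence of endothelial and immune cells. Its level was 21.8, 24.5 and 26.8 CPM in the control libraries, 4.25, 5.28 and 5.69 in LPS, and 12.2, 13.9 and 17.8 in LPS plus BHB. No 2 groups overlapped, and LPS plus BHB lay between the others. Klf2 fell by 2.27 on the log2 scale with LPS (SE 0.14, edgeR adjusted p = 3.208e-11) and was 2.88-fold higher with BHB added (log2 1.53, SE 0.15, adjusted p = 6.947e-08). It stayed below control in LPS plus BHB (log2 -0.74, SE 0.12, adjusted p = 3.168e-05). Of all tested genes, 4.78% rose at least as far with BHB.

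Klf10 (ENSMUSG00000037465.10, chr15:38291463-38300706, minus strand), first known as a gene induced early by TGF-beta, had 72.3, 74.7 and 70.5 CPM in control. It had 15.4, 14.3 and 15.6 CPM in LPS, and 51.6, 51.4 and 66.9 in LPS plus BHB. The groups did not overlap, and LPS plus BHB replicate 3 was the highest of its group for Klf10 and for Klf2. Klf10 was 4.80-fold lower with LPS (log2 -2.26, SE 0.09, edgeR adjusted p = 5.992e-14). With BHB added it was 3.75-fold higher (log2 1.91, SE 0.09, adjusted p = 7.55e-12), a rise that 2.92% of tested genes matched or passed. Against control it was 1.28-fold lower (log2 -0.36, SE 0.08, adjusted p = 0.0006013), or -0.68 on the log2 scale with library totals alone. Without LPS plus BHB replicate 3 the log2 changes with BHB were 1.36 for Klf2 and 1.77 for Klf10. The order lower, higher, lower over the 3 comparisons was held by 10.7% of tested genes.

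Klf3 and Klf7 rose with LPS and rose again with BHB. Klf7 (ENSMUSG00000025959.13, chr1:64029447-64122282, minus strand), best known in neurons and fat cells, had 19.4, 20.02 and 26.3 CPM in control, 188, 191 and 183 in LPS, and 335, 340 and 323 in LPS plus BHB. The 3 groups were far apart. It was 8.55-fold higher with LPS (log2 3.10, SE 0.09, edgeR adjusted p = 7.403e-13) and a further 1.78-fold higher with BHB (log2 0.83, SE 0.08, adjusted p = 1.015e-06), reaching 15.2-fold over control. Among tested genes, 4.14% rose as far with LPS. The annotation places the opposite-strand lincRNA Gm26649 over 3196 of the 8131 exon bases of Klf7. Whether strand was used in counting is not known here, and without strand the reads of the pair cannot be told apart.

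Klf3 (ENSMUSG00000029178.14, chr5:64803388-64832901, plus strand), the CtBP-recruiting repressor, had 66.8, 65.8 and 60.7 CPM in control. It had 158, 162 and 149 CPM in LPS, and 293, 305 and 307 in LPS plus BHB. Every library with BHB was above every library with LPS alone, and all of those were above control. The rise was 2.43-fold with LPS (log2 1.28, SE 0.05, edgeR adjusted p = 1.092e-15) and 1.93-fold with BHB (log2 0.95, SE 0.05, adjusted p = 1.016e-12). Higher calls in all 3 comparisons were shared by 7.82% of tested genes.

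Klf4 and Klf6 rose with LPS and fell when BHB was added, staying above control. Klf6 (ENSMUSG00000000078.7, chr13:5861482-5870394, plus strand) promotes inflammatory gene expression in macrophages and had the highest level per kilobase of the 8 genes in every library. It had 327, 318 and 334 CPM in control, 750, 780 and 808 in LPS, and 568, 546 and 578 in LPS plus BHB. The groups were separate and LPS plus BHB was the middle one. Klf6 was 2.39-fold higher with LPS (log2 1.26, SE 0.04, edgeR adjusted p = 2.552e-16) and 1.38-fold lower with BHB (log2 -0.47, SE 0.04, adjusted p = 1.581e-08). It was 1.73-fold above control in LPS plus BHB (log2 0.79, or 0.46 with library totals alone).

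Klf4 (ENSMUSG00000003032.8, chr4:55527143-55532466, minus strand), a monocyte differentiation factor also used in making pluripotent cells, had the lowest level per kilobase in control. Its level was 3.63, 2.84 and 4.55 CPM in control, 16.0, 19.7 and 19.98 in LPS, and 10.9, 9.34 and 8.96 in LPS plus BHB. The groups did not overlap. It was 5.05-fold higher with LPS (log2 2.34, SE 0.15, edgeR adjusted p = 8.706e-12) and 1.91-fold lower with BHB (log2 -0.93, SE 0.14, adjusted p = 8.196e-06). Of all tested genes 5.18% fell at least as far with BHB, and 11.6% had the order higher, lower, higher.

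Klf9 and Klf13 moved least. Klf9 (ENSMUSG00000033863.2, chr19:23141226-23168134, plus strand), a glucocorticoid-responsive member, had 31.6, 26.2 and 32.9 CPM in control, 35.1, 36.7 and 37.2 in LPS, and 32.9, 29.5 and 31.4 in LPS plus BHB. LPS was just above the other groups, which overlapped each other. The log2 change was 0.26 with LPS (SE 0.08, edgeR adjusted p = 0.00441) and -0.21 with BHB (SE 0.08, adjusted p = 0.02977). Both calls changed with the libraries or scaling used. The rise with LPS was not called without control replicates 2 and 3 (log2 0.20, adjusted p = 0.0772), and on library totals alone it was -0.01. The fall with BHB was not called without LPS replicate 2 (adjusted p = 0.0732), LPS replicate 3 (0.0700) or LPS plus BHB replicate 2 (0.116).

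Klf13 (ENSMUSG00000052040.10, chr7:63886351-63938915, minus strand), known in lymphocytes as an activator of Ccl5, had 233, 236 and 231 CPM in control, 237, 237 and 215 in LPS, and 293, 287 and 238 in LPS plus BHB. Control and LPS overlapped. LPS plus BHB lay above both, with replicate 3 close to them. The log2 change was -0.02 with LPS (SE 0.06, edgeR adjusted p = 0.7526) and 0.25 with BHB (SE 0.06, adjusted p = 0.004001), or 0.34 without LPS plus BHB replicate 3. Against control it was 0.23 (SE 0.06, adjusted p = 0.004369). On library totals alone Klf13 was called lower with LPS (log2 -0.30, adjusted p = 0.000265), a scaling that moved the median of all genes by -0.27, and against control in LPS plus BHB it was -0.10.

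**Figure D2:**
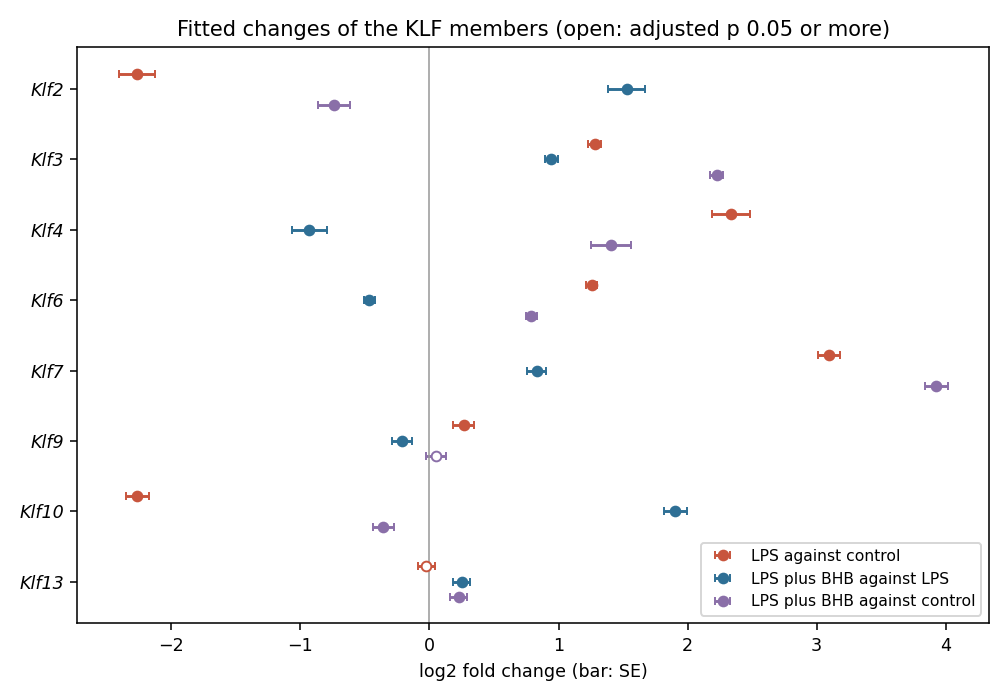
Log2 fold change of each member in the 3 comparisons, with bars of 1 SE from the edgeR fit over 9 libraries and open points where the change was not called. Klf2 and Klf10 lie below 0 with LPS and above 0 with BHB, and Klf4 and Klf6 lie on the other sides.

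Levels between members were compared as CPM per kilobase of annotated exon. In control cells Klf6 was highest with 74.3 ± 1.87 (SD, n = 3), followed by Klf13 with 30.97 ± 0.291, Klf10 with 17.4 ± 0.504 and Klf2 with 13.2 ± 1.35. Klf9 (6.28 ± 0.741) and Klf3 (5.73 ± 0.291) overlapped, and Klf7 (2.695 ± 0.474) and Klf4 (1.21 ± 0.281) were lowest. With LPS the order below Klf6 and Klf13 became Klf7, Klf3, Klf9, Klf4, Klf10 and Klf2, with no overlap between neighbours. Klf10 went from rank 3 to rank 7 and Klf2 from rank 4 to rank 8. With BHB added, Klf7 (41.0 ± 1.06) and Klf13 (36.2 ± 3.98) followed Klf6 (128.4 ± 3.64), and Klf10 rose to rank 5. With the longest transcript as the length, chosen after seeing the data, Klf3 moved to rank 3 in LPS and rank 2 in LPS plus BHB, since its exons span 11243 bases and its longest transcript 5221. It also passed Klf9 in control, which made it rank 5.

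The sum over the 8 members per kilobase was 151.8 ± 2.99 in control, 264.9 ± 6.22 in LPS and 263.6 ± 2.68 in LPS plus BHB (SD, n = 3). On these exon lengths LPS and LPS plus BHB overlapped in the sum while the shares differed. Klf6 made up 49.0% of the sum in control, 67.0% in LPS and 48.7% in LPS plus BHB. Klf7 went from 1.77% to 8.70% and 15.5%, and Klf3 from 3.78% to 5.26% and 10.2%. The shares of Klf10 and Klf2 were smallest in LPS. Klf10 had 11.5% in control, 1.37% in LPS and 5.14% with BHB, and Klf2 had 8.69%, 1.04% and 3.00%. The sums, their overlap and the shares rest on the exon lengths used. Klf3 has 11243 exon bases but a longest transcript of 5221. With the shorter length Klf3 would weigh more, above all in LPS plus BHB, where its CPM was highest. The sum was not taken on that length, so the overlap cannot be read as an unchanged total of the 8 members.

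**Figure D3:**
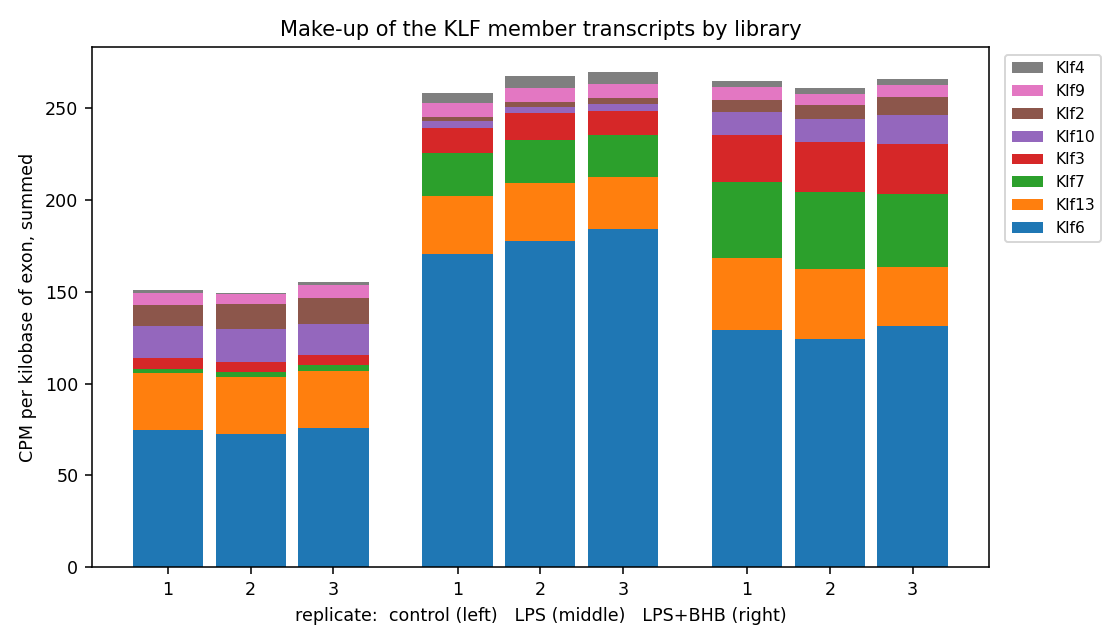
Stacked levels of the 8 members in each library, as CPM per kilobase of exon on an axis from 0, with 3 libraries for each group. With these exon lengths the LPS and LPS plus BHB bars have like heights. The Klf6 part is largest in every library, and the Klf7 part is larger with BHB than with LPS alone.

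Ratios between 2 members within a library do not depend on scaling between libraries. The 4 pairs were chosen after their values were seen, so no test is given. Klf2 per kilobase was 9.92, 14.2 and 9.73 times Klf4 in control, 0.438, 0.442 and 0.470 times in LPS, and 1.85, 2.45 and 3.28 times in LPS plus BHB. Klf2 was thus above Klf4 in every control and BHB library and below it in every LPS library. The ratio of Klf10 to Klf6 was 0.234 ± 0.0127 in control, 0.0204 ± 0.00119 in LPS and 0.105 ± 0.0143 in LPS plus BHB. Klf7 to Klf6 was 0.0362 ± 0.00565, 0.130 ± 0.00665 and 0.319 ± 0.0169, higher with LPS where Klf10 to Klf6 was lower, and higher again with BHB. Klf3 to Klf9 was 0.924 ± 0.144, 1.85 ± 0.115 and 4.14 ± 0.315.

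**Figure D4:**
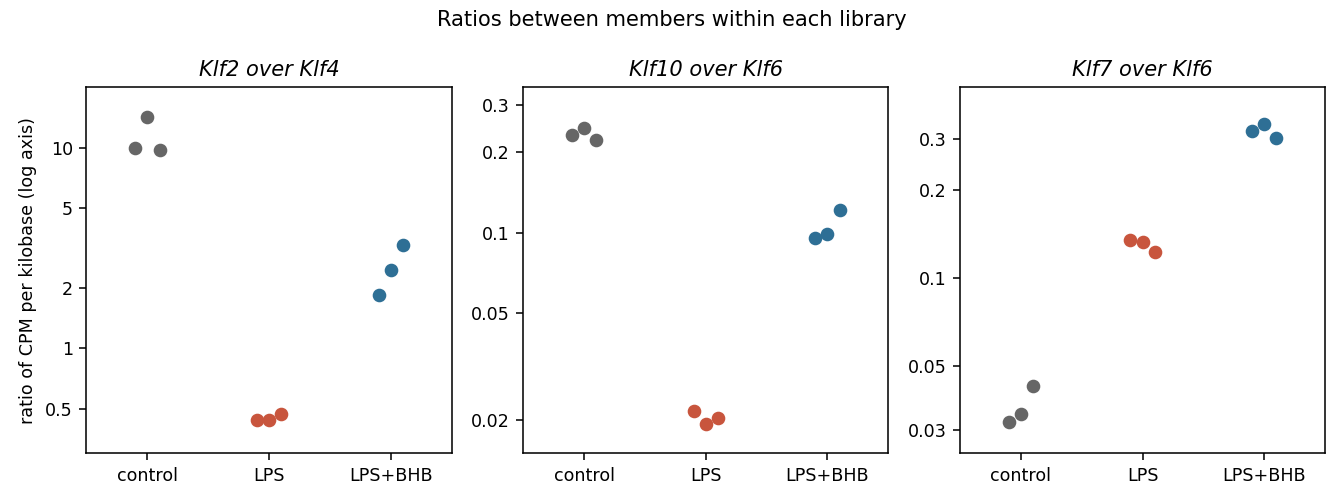
Ratio of CPM per kilobase between 2 members in each library, on log axes. Klf2 over Klf4 and Klf10 over Klf6 are lowest in LPS, and Klf7 over Klf6 is highest in LPS plus BHB.

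The table held 9 other Klf symbols, of which 5 were tested. Klf5, known in gut epithelium, had 0.03, 0.16 and 0.22 CPM in control, where its counts were 1, 6 and 8. It had 13.2, 13.4 and 13.2 CPM in LPS and 9.19, 9.14 and 11.9 in LPS plus BHB. Klf5 passed the filter on low counts only through the libraries given LPS, where it was high, so no p-value is given for its rise. The log2 change with LPS was 6.55 (SE 0.26), and 8.68 without control replicates 2 and 3, the controls that also held counts of LPS-induced genes. Both sizes rest on control counts near 0. The fall of Klf5 with BHB had a log2 change of -0.40 (edgeR adjusted p = 0.02705). It was not called without any 1 of 4 libraries: LPS replicate 1 (0.0619), LPS replicate 2 (0.0710), LPS plus BHB replicate 1 (0.103) or LPS plus BHB replicate 2 (0.104). Klf8 had the pattern of Klf4 and Klf6, at 12.1 ± 1.34, 64.2 ± 3.76 and 37.0 ± 1.44 CPM in the 3 groups (log2 2.41 with LPS, -0.79 with BHB).

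Klf11, a close relative of Klf10, had the first 2 calls of Klf2 and Klf10, at 22.8 ± 1.40, 8.33 ± 1.67 and 19.4 ± 1.60 CPM (log2 -1.45 with LPS, 1.22 with BHB). Its difference from control in LPS plus BHB (log2 -0.24, edgeR adjusted p = 0.04686) was lost in 9 of 16 alternative fits. Klf16 rose in both, as Klf3 and Klf7 did, at 14.9 ± 1.35, 22.2 ± 0.868 and 40.0 ± 2.21 CPM. Klf12 stayed under 1 CPM on average and was not called. Klf15, a glucocorticoid target removed by the filter, had 3 counts over the control libraries, 48 over LPS and 1 over LPS plus BHB. The LPS to control ratio was 20.02 (exact 95% interval 6.45 to 100.5, counting error only).

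**Figure D5:**
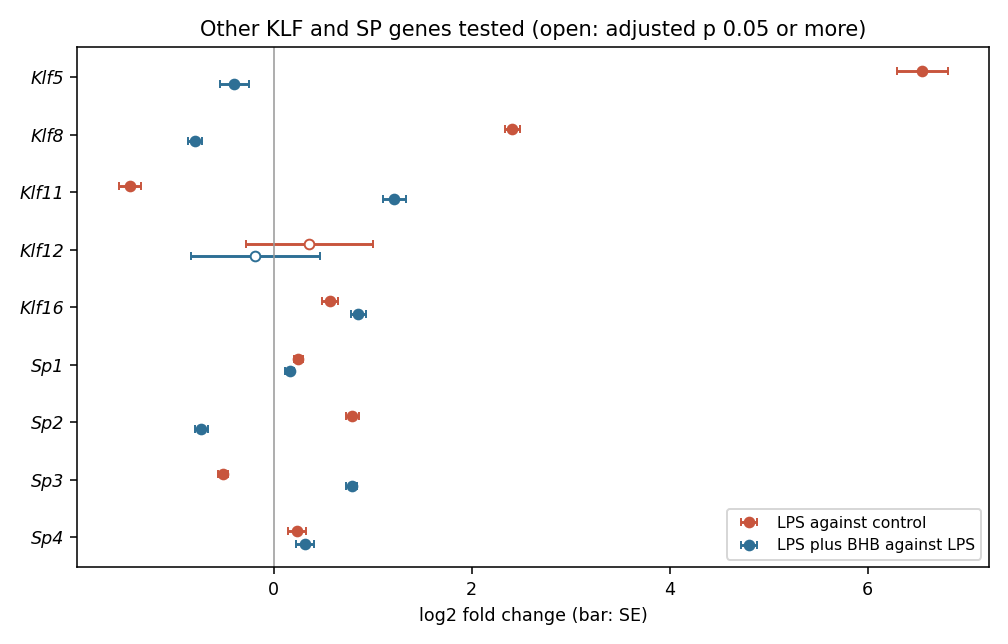
Log2 fold change of the other Klf and Sp genes tested, with LPS against control and with LPS plus BHB against LPS; bars are 1 SE and open points were not called. Klf5 has the largest change with LPS (6.55), set against control counts of 1, 6 and 8. Klf11 and Sp3 lie below 0 with LPS and above 0 with BHB.

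The SP factors bind the same GC boxes as KLFs. All 4 tested members were called with LPS and with BHB, where 79.8% and 50.7% of all tested genes were. Their median absolute log2 change was 0.38 with LPS and 0.52 with BHB, against 0.90 and 0.34 over all tested genes. Sp3, which can repress, had 99.5 ± 3.17, 69.8 ± 3.94 and 120.3 ± 3.34 CPM in control, LPS and LPS plus BHB (log2 -0.51 and 0.78). Sp2 moved the other way, at 26.5 ± 1.54, 45.9 ± 1.05 and 27.6 ± 1.36 CPM (log2 0.79 and -0.73). Sp1, which acts at many promoters, changed by 0.25 and 0.16 on the log2 scale, and Sp4 by 0.24 and 0.32. The LPS call of Sp4 (edgeR adjusted p = 0.02016) was lost without control replicate 2 (adjusted p = 0.0724), without LPS replicate 2 (0.0690) and without control replicates 2 and 3 (0.130). In the last of these fits, where 5 SP genes passed the filter, 2 were higher and 2 lower. On library totals alone the LPS changes of Sp1 and Sp4 were -0.03 and -0.04.

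Genes that act upstream of KLFs were taken from lists chosen with earlier results known. The MEK5 and MEF2 pathway, which induces Klf2 and Klf4 in endothelium, had 3 of 7 genes higher and 4 lower with LPS, and 4 higher and 1 lower with BHB, with list medians of -0.22 and 0.12. Over all tested genes 79.8% were called with LPS (38.4% higher, 41.4% lower) and 50.7% with BHB (26.4% higher, 24.4% lower), with medians of -0.06 and 0.01. The LPS counts of this list were also 3 and 4 without control replicates 2 and 3, and the BHB counts 4 and 0. Mef2c, a MEF2 transcription factor, had 168.3 ± 8.72 CPM in control, 2.29 ± 0.188 in LPS and 4.59 ± 0.589 in LPS plus BHB (log2 -6.20 and 1.00). Mef2d had 189.0 ± 3.77, 89.9 ± 0.163 and 134.2 ± 5.31 CPM (log2 -1.07 and 0.58). Map3k2, a kinase above MEK5, rose with LPS (log2 0.92) and had a log2 change of 0.07 with BHB that was not called (edgeR adjusted p = 0.2235). Mef2a changed by 0.23 and 0.28, the first of which was -0.04 on library totals alone.

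Of 11 tested TGF-beta and glucocorticoid genes, 4 were higher and 6 lower with LPS, and 8 higher and 1 lower with BHB, with medians of -1.01 and 0.27, beside 79.8% and 50.7% of all tested genes called. Without control replicates 2 and 3 the LPS counts were also 4 and 6. Smad7, the inhibitor of TGF-beta signalling and a target described for Klf10, had 6.93 ± 0.587, 1.63 ± 0.397 and 11.2 ± 3.29 CPM (log2 -2.09 and 2.79). The ligand Tgfb1 fell by 1.03 and rose by 0.27, and its receptor Tgfbr2 fell by 1.23 and rose by 0.54. Per1, a clock gene that glucocorticoids induce, followed with -1.15 and 0.93. Tsc22d3, which encodes the glucocorticoid-induced protein GILZ, fell with LPS (log2 -2.84), and its log2 change of -0.10 with BHB was not called.

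Among 12 cofactor genes 5 were higher and 5 lower with LPS, and 3 higher and 2 lower with BHB, with medians of 0.01 and -0.02. The shares called were near those of all tested genes, 83.3% against 79.8% with LPS and 41.7% against 50.7% with BHB. Without control replicates 2 and 3, 5 were higher and 4 lower with LPS. Sap30, a subunit of the SIN3 complex, had 25.9 ± 0.780, 55.2 ± 1.17 and 119.6 ± 14.4 CPM (log2 1.09 and 1.116). Sin3a, its scaffold, had a log2 change of 0.04 with LPS that was not called and rose by 0.68 with BHB. Sin3b rose with LPS (log2 0.76) and had -0.03 with BHB, not called. Ctbp2, a partner of Klf3, fell by 0.43 and rose by 0.44. The acetyltransferase Kat2b fell by 1.08 with LPS and had -0.11 with BHB, not called.

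Of 8 genes for turnover of KLF and related proteins, 3 were higher and 4 lower with LPS, and 5 higher and 2 lower with BHB, with medians of -0.21 and 0.26. That is 87.5% called in each, against 79.8% and 50.7% of all tested genes, and the LPS counts were also 3 and 4 without control replicates 2 and 3. Wwp1, a ubiquitin ligase that acts on KLF proteins, had 514.4 ± 9.87 CPM in control, 49.1 ± 3.57 in LPS and 66.1 ± 6.80 in LPS plus BHB (log2 -3.39 and 0.43). Smurf1, another ligase of that class, rose by 1.33 and 0.17. Vhl, a ligase subunit that marks HIF proteins, had a log2 change of -0.13 with LPS, not called, and rose by 1.70 with BHB, while on library totals alone the first was -0.41 and called. Btrc fell by 0.84 and rose by 0.64. Siah1a rose by 1.45 with LPS, and its fall with BHB (log2 -0.24) was not called in 4 of the fits without 1 library.

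Of 19 genes described elsewhere as KLF targets, 14 were tested. With LPS 6 were higher and 7 lower, and with BHB 7 were higher and 4 lower, with medians of -0.06 and 0.53. That is 92.9% and 78.6% called, against 79.8% and 50.7% of all tested genes. Without control replicates 2 and 3, where 15 passed the filter, the LPS counts were also 6 and 7, and with BHB 8 were higher and 5 lower. S1pr1, a receptor for cell exit from tissue and a target described for Klf2, had 180.1 ± 6.63, 4.94 ± 0.731 and 40.4 ± 1.23 CPM (log2 -5.19 and 3.03). Hif1a, a hypoxia factor, had 132.6 ± 9.24, 438.9 ± 1.71 and 1260 ± 9.20 CPM (log2 1.73 and 1.52). Cd14, a co-receptor for LPS, had 529.7 ± 22.3, 1651 ± 87.9 and 5765 ± 218 CPM (log2 1.64 and 1.80). Nlrp3, an inflammasome sensor, rose by 4.42 and fell by 0.29. That a gene is a described target says nothing of which factor acted on it here.

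Genes with the most similar profile were found by the Pearson r of log2 CPM over the 9 libraries, among 8066 tested genes whose mean reached 10 CPM. The libraries fall into 3 groups, so r mostly reflects the group means and is a description. Klf2 was closest to Cd72 (r = 0.994) and Loxl3 (0.992), and Klf10 to Htra2 and Atg4c (both 0.997). Klf3 was closest to N4bp1 and Map3k10 (both 0.999), Klf7 to Tgif1 and Foxn2 (both 0.999), Klf4 to Zdhhc18 (0.994) and Ankrd13c (0.993), and Klf6 to Lilrb4a (0.999) and Slu7 (0.998). Such likeness was common: 2246 genes had r over 0.9 with Klf7 and 499 with Klf10. For Klf9 only 2 genes passed 0.9, Meaf6 (0.914) and Psmg3 (0.911), and for Klf13 4 did, led by Eif4b (0.934) and Spats2 (0.927). Between members r was 0.973 for Klf2 and Klf10, 0.966 for Klf3 and Klf7, 0.987 for Klf4 and Klf6, and -0.911 for Klf2 and Klf4.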

How the data were processed

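RNA was extracted with Trizol for standard Illumina libraries, per the labels' protocols, and reads were aligned with HISAT2 to mm10, per the submitters' processing notes. Of the counting tool, annotation and strand setting nothing is stated. The authors deposited raw counts per gene symbol for 9 libraries. Columns were matched to libraries by title.

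After filterByExpr (minimum count 10), 14026 genes holding 99.956% of the counts were kept. A robust quasi-likelihood model was fitted in edgeR 4.0.16 (R 4.3.3) with TMM scaling, group as the only term, all 9 libraries and 6 residual degrees of freedom. Two-sided p-values were adjusted by Benjamini-Hochberg over all 14026 genes, with a threshold of 0.05. The SE of a log2 fold change is its size divided by the square root of F and is approximate. CPM use TMM-adjusted totals. Replicates differed by more than sampling noise (chi-square per degree of freedom 3.17 to 11.2) and were counted separately. The model was run on counts simulated with the mean levels and spreads estimated from these data, with 200 genes changed in each comparison. It recovered 58.2% to 71.6% of 1.5-fold changes and 92.4% to 93.9% of 4-fold changes, with 8 to 16 false calls. Far fewer genes were changed there than the 50.7% to 79.8% called in the data, which makes the adjusted threshold stricter. The recovery rates therefore do not carry over to these comparisons. A gene that was not called may still have changed. Because the spreads came from the same fit, the simulation cannot show that the model suits these libraries.

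Exon lengths and coordinates are from GENCODE M21 (GRCm38, the build mm10 names) and promoters from RefSeq. Words of 31 bases shared with other genes made up at most 2.002% of a member's transcript words. The members and lists were chosen with earlier results of these data known. Named genes are the members, the other tested Klf and Sp genes, the 3 genes with the smallest p in each list for LPS against control and for LPS plus BHB against LPS, and the 2 genes most alike to each member. Acod1, Klf15 and the single marker genes were named after their values were seen. Alternatives were other scalings, no filter, DESeq2 1.42.0, a replicate block, only the 6 libraries compared, and leaving libraries out.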

Additional observations from a re-analysis of the deposited data

How the results depend on the processing

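Klf2, Klf3, Klf4, Klf6, Klf7 and Klf10 kept direction and call in all 3 comparisons under all 16 alternatives, with log2 changes for LPS plus BHB against LPS of 1.36 to 1.64 for Klf2 and 1.77 to 1.97 for Klf10. Every count of genes or members called stayed within 1.5 times of the reported one. On library totals alone, which moved the median of all genes by -0.27 (LPS against control) and -0.33 (LPS plus BHB against control), the share of calls that were higher was 37.7% in place of 48.2% and 34.7% in place of 48.5%. Against control in LPS plus BHB, that scaling gave -0.68 for Klf10 and 0.46 for Klf6. It also reversed the LPS changes of Klf9 (-0.011), Sp1 (-0.029), Sp4 (-0.039), Mef2a (-0.044) and Sin3a (-0.24, called), and in LPS plus BHB against control those of Klf9 (-0.28, called), Klf13 (-0.10) and Klf12 (-0.15). The uncalled LPS change of Klf13 was 0.011 with DESeq2 size factors and 0.011 with DESeq2, 0.0033 with no filter, and -0.036 to 0.047 over fits without 1 library, the highest without LPS replicate 3. In LPS plus BHB against control, Klf9 ranged from -0.046 to 0.11 over fits without 1 library, the lowest without control replicate 2, and was -0.011 without control replicates 2 and 3. Klf12, never called, was -0.31 with LPS without control replicates 2 and 3, -1.52 to 0.27 with BHB over fits without 1 library, and against control -0.053 with the replicate block, -0.50 without control replicates 2 and 3, and -1.15 to 0.68 over fits without 1 library. The cause of these shifts was not tested. Same-numbered libraries did not deviate together (r of -0.02 to 0.04, against -0.04 to 0.04 for other numbers), so the numbers were not taken as pairs. The replicate block gave 5348 genes higher and 5788 lower with LPS in place of 5390 and 5801, 3647 and 3363 with BHB in place of 3697 and 3418, and 5279 and 5629 against control in place of 5328 and 5662.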

Other observations

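The annotated 3' untranslated regions of the members differ in length and in the number of ATTTA pentamers, a sequence found in many unstable mRNAs. Klf7 has 6266 bases with 18 copies, and 16.4% of regions of like length held as many. Klf3 and Klf6 have 7 copies each in 3743 and 3111 bases, Klf9 has 8 in 3222 and Klf10 has 4 in 1492. Klf13 has 3 in 5157 bases, and 96.3% of regions of like length held as many. Klf2 and Klf4 have 1 copy each in 737 and 982 bases. These counts are properties of the annotation, and no relation to the changes in level was tested.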
